A study of Homo sapiens with 3 samples.

Results

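Interferon-stimulated genes are the host genes that cells switch on when interferons bind their receptors. The 40 described here were listed by symbol. The list sets no condition on a measured value, but earlier results of these data were known when it was drawn up. Of the 40, 39 had at least 1 probe set annotated to that gene alone. A probe set is a group of oligonucleotides on the array that reports on 1 transcript. Of the 39 genes, 37 were kept by a filter on low signal, out of 11653 kept among 18239 named genes. MX2 and RSAD2 had a named probe set but were under the filter level, and STAT2 was not analysed here.

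The genes were read in A498, a human renal carcinoma line of epithelial origin without functional VHL. Messenger RNA was profiled on Affymetrix expression arrays after 4 h with E. coli 83972, with 60 µM DRB, or with 0.08% DMSO as the control. All cultures were kept in serum-free medium with gentamicin. E. coli 83972 came from carriage of bacteria in the urine without symptoms, and DRB is a nucleoside analogue that blocks transcript elongation by RNA polymerase II through the kinase CDK9. There was 1 array for each of E. coli 83972, DRB and control, and all were labelled as experiment 2. No spread between cultures can therefore be given, no test of a difference was possible, and every comparison below is between single arrays. The labels state DMSO for the control array only, so DMSO and treatment cannot be told apart in either comparison, and both comparisons share that control array. The labels disagree on the concentration of the bacteria.

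Type I and type III interferons act through receptors that carry the kinases JAK1 and TYK2. The kinases activate the factor ISGF3, of which IRF9 is the DNA-binding subunit, and ISGF3 binds a DNA element called the ISRE. Interferon gamma acts through its own receptor and the GAS element. The products of the induced genes block viral translation, sense foreign RNA, conjugate ISG15 to proteins, hold virions at membranes and load peptides on MHC class I molecules. Epithelial cells of the urinary tract can sense bacterial lipopolysaccharide through TLR4, whose adaptor TICAM1 leads through TBK1 and IRF3 to interferon beta.

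Most members with a listed promoter held the ISRE core. The list was named for interferon induction, which acts through the ISRE, so the share below is no independent property of the members. The ISRE core searched was a pair of GAAA tetramers separated by 2 bases, on both strands, in the 250 bases before the annotated start. RefSeq promoters (GRCh38.p14) were listed for 32 of the 40 members. Of these, 23 (71.9%) had a match in at least 1 promoter, against 3.71% of all 27305 genes with an entry. Counted by promoter, 26 of 41 promoters of members held it (63.4%), against 3.02% of all 35116 promoters. In 14 members a promoter held at least 2 matches. The GAS motif TTCNNNGAA was found in 10 of 32 members (31.2%; all genes 8.09%), and the NF-κB consensus in 8 (25.0%; all genes 11.8%). A match is a description of letters and not a measured binding site, and some matches overlap each other.

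The 150 bases before the start are shown for the members that were at least 2-fold different on a treated array, and for ISG15 as a classic member that was not, with each ISRE core match in capitals, read 5′ to 3′ on the strand of the gene.

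GBP1 (chr1:89065209-89065358, − strand): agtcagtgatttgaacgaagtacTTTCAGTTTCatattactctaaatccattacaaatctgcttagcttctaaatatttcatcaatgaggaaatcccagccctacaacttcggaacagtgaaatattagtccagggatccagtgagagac
IFIT1 (chr10:89392473-89392622, + strand): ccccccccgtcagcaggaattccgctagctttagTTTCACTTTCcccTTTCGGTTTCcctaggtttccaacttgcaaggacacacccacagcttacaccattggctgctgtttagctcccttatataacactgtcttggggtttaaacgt
IFIT3 (chr10:89332379-89332528, + strand): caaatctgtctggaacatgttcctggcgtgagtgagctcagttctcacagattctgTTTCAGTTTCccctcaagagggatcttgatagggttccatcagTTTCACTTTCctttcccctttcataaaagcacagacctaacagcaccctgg
IFIT5 (chr10:89414418-89414567, + strand): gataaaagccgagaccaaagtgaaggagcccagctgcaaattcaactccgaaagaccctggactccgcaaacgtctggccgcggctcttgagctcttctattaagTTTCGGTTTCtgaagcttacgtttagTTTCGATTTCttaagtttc
ISG15 (chr1:1013347-1013496, + strand): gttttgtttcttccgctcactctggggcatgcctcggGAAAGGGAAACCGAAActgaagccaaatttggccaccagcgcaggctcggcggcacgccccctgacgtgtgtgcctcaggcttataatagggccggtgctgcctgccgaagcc

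GBP1 had 1 match, which began 127 bases before the start. IFIT1, IFIT3 and IFIT5 each had 2 separate matches, and ISG15 had 2 that overlap and read as 1 capital run. IFIT3 has 2 annotated starts, and the promoter with the match nearest to its start is shown.

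All values are the deposited log2 probe-set values, which cannot be set against those of another probe set. The brightest probe set of a gene, by its average on the 3 arrays, stands for that gene. It was kept when its highest value on the 3 arrays reached the median of all values, 4.88. A difference is a treated array minus the control array on the log2 scale, so that 1 is 2-fold. The technical standard deviation of a difference, taken from the disagreement of probe sets of the same gene, was 0.18 for E. coli 83972 and 0.32 for DRB. It leaves out the variation between cultures. The plot of levels shows 37 of 39 members reaching the filter level.

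**Figure D1:**
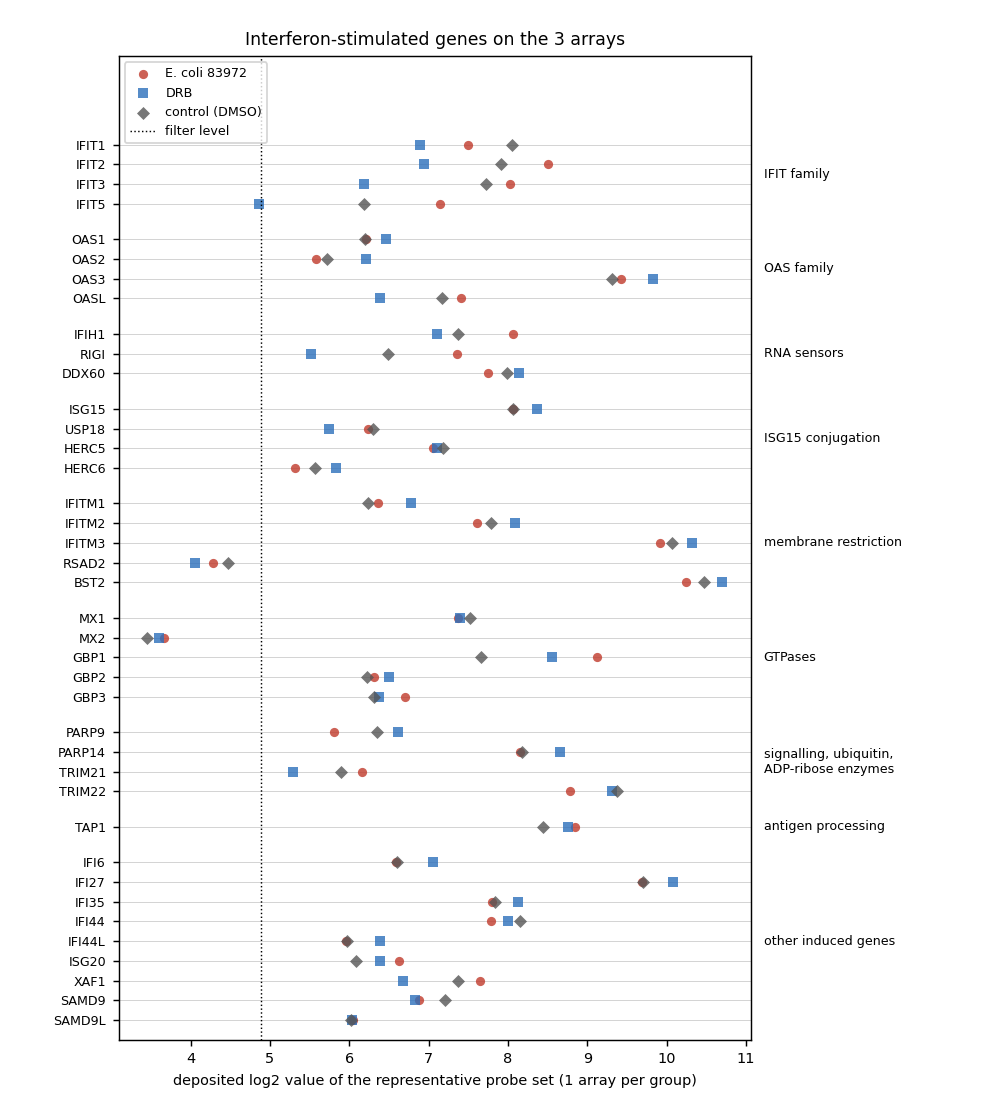
Deposited log2 value (x axis) of the representative probe set of 39 interferon-stimulated genes (rows, by role) on the E. coli 83972, DRB and control arrays, 1 array each; the dotted line is the filter level of 4.88. MX2 and RSAD2 lie left of the line on all 3 arrays, and values of different genes are not comparable.

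Host identity was checked with marker genes. Of 10 measured kidney epithelial or renal carcinoma markers 8 were kept, among them KRT8, KRT18, PAX8 and VIM, while EPCAM and CUBN were under the filter level. All 5 markers of plasmacytoid dendritic cells, the main producers of type I interferon in blood, were under it. So were 5 of 9 leukocyte markers, including PTPRC and CD14. The other 4, CD68, CSF1R, CD3E and TYROBP, were kept. CD68, a lysosomal protein that is not limited to leukocytes, was bright on all 3 arrays, with 9.41 as its highest value (DRB), and differed by −0.08 with E. coli 83972 and 0.32 with DRB. The highest value of CSF1R, CD3E and TYROBP was 5.52. None of the 4 differed by more than 0.34 in size on either treated array, and their part in the results was not tested.

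With E. coli 83972 the median member lay close to 0, and GBP1 alone was past 2-fold. Of 37 kept members 1 was at least 2-fold higher than control (2.70%), against a background of 1.91% of all kept genes. None of the 37 was at least 2-fold lower, where the background was 0.652%. At the lower threshold of 1.5-fold, 5 members were higher (GBP1, IFIT5, RIGI, IFIH1 and IFIT2; 13.5%, background 5.19%). TRIM22, almost exactly at the threshold, was the 1 member lower (2.70%, background 3.06%). With centring on hybridization spike-ins these counts turned to 2 higher (GBP1 and IFIT5) and 6 lower (IFIT1, IFI44, SAMD9, HERC6, PARP9 and TRIM22), where 2.28% of all kept genes were higher and 18.0% lower. The median difference of the members was −0.0068, with quartiles of −0.16 and 0.28, and that of all kept genes was −0.027, with quartiles of −0.18 and 0.14. The single-array counts are small, and whether the members' share differs from the background was not tested.

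GBP1 encodes a large GTPase that coats intracellular bacteria and vacuoles. It read 9.12 on the E. coli 83972 array, 8.56 on the DRB array and 7.66 on the control array. Both treated arrays were therefore above the control, by 2.76-fold with E. coli 83972 (log2 1.46) and by 1.87-fold with DRB (0.90). All 5 of its kept probe sets were at least 2-fold higher with E. coli 83972, lying between 1.36 and 1.84, and averaged 1.56 ± 0.18 (SD over 5 probe sets). With DRB they lay between 0.75 and 1.12, with a mean of 0.94 ± 0.14, but with centring on poly-A spike-ins the DRB difference of GBP1 was 0.06. Of these probe sets 4 carry the suffix _x_at, which the manufacturer gives to sets whose probes may also match other transcripts, and its paralogs are similar in sequence.

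GBP3, GBP1 and GBP2 follow each other among protein-coding genes in RefSeq order. GBP2 read 6.31 with E. coli 83972, 6.50 with DRB and 6.22 in the control. GBP3 read 6.70 with E. coli 83972, 6.37 with DRB and 6.32 in the control. The differences of GBP2 (0.09 and 0.28) were thus close to or below the technical standard deviation, and GBP3 was higher by 0.38 on the E. coli 83972 array and by 0.06 on the DRB array. MX1, a dynamin-like GTPase that blocks viral ribonucleoproteins, differed by −0.16 and −0.14. MX2, its nuclear relative, read between 3.45 and 3.66 on the 3 arrays and cannot be judged at that level.

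Of the 3 cytosolic RNA sensor genes, RIGI and IFIH1 were higher with E. coli 83972 and DDX60 was not. RIGI (listed as DDX58), which recognizes RNA with a triphosphate end, read 7.35 with E. coli 83972, 5.51 with DRB and 6.49 in the control. It was therefore highest with the bacterium and lowest with DRB, with differences of 0.87 and −0.97. Its 3 kept probe sets were all higher with E. coli 83972 (mean 0.70 ± 0.23, SD over 3 probe sets). They were all lower with DRB, where the mean of −0.54 ± 0.40 was much smaller in size than the value of the brightest set. IFIH1, the sensor MDA5 of long double-stranded RNA, read 8.06 with E. coli 83972, 7.10 with DRB and 7.37 in the control (0.69 and −0.26). DDX60, a helicase described as a cofactor of these sensors, differed by −0.23 and 0.15.

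The IFIT genes encode proteins that bind foreign RNA and block its translation. IFIT2 and IFIT3 follow each other in gene order, as do IFIT1 and IFIT5. IFIT5 read 7.15 with E. coli 83972, 4.86 with DRB and 6.19 in the control, and was the member of the family with the largest E. coli difference (0.96). Its second kept probe set showed 0.10, so the mean was 0.53 ± 0.61 (SD over 2 probe sets), the widest disagreement among the 20 members with several kept probe sets. IFIT2, which also promotes apoptosis, read 8.51 with E. coli 83972, 6.94 with DRB and 7.91 in the control. Its E. coli difference of 0.60 was shared by its second probe set (mean 0.54 ± 0.08).

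IFIT1 and IFIT3, which form a complex that binds RNA caps lacking methylation, did not move alike with E. coli 83972. IFIT1 read 7.50 with E. coli 83972, 6.89 with DRB and 8.06 in the control, so that both treated arrays were below the control. IFIT3 read 8.03 with E. coli 83972, 6.19 with DRB and 7.72 in the control. Their E. coli differences were −0.56 and 0.31, each from 1 kept probe set, and that of IFIT3 turned to −0.03 with centring on hybridization spike-ins.

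**Figure D2:**
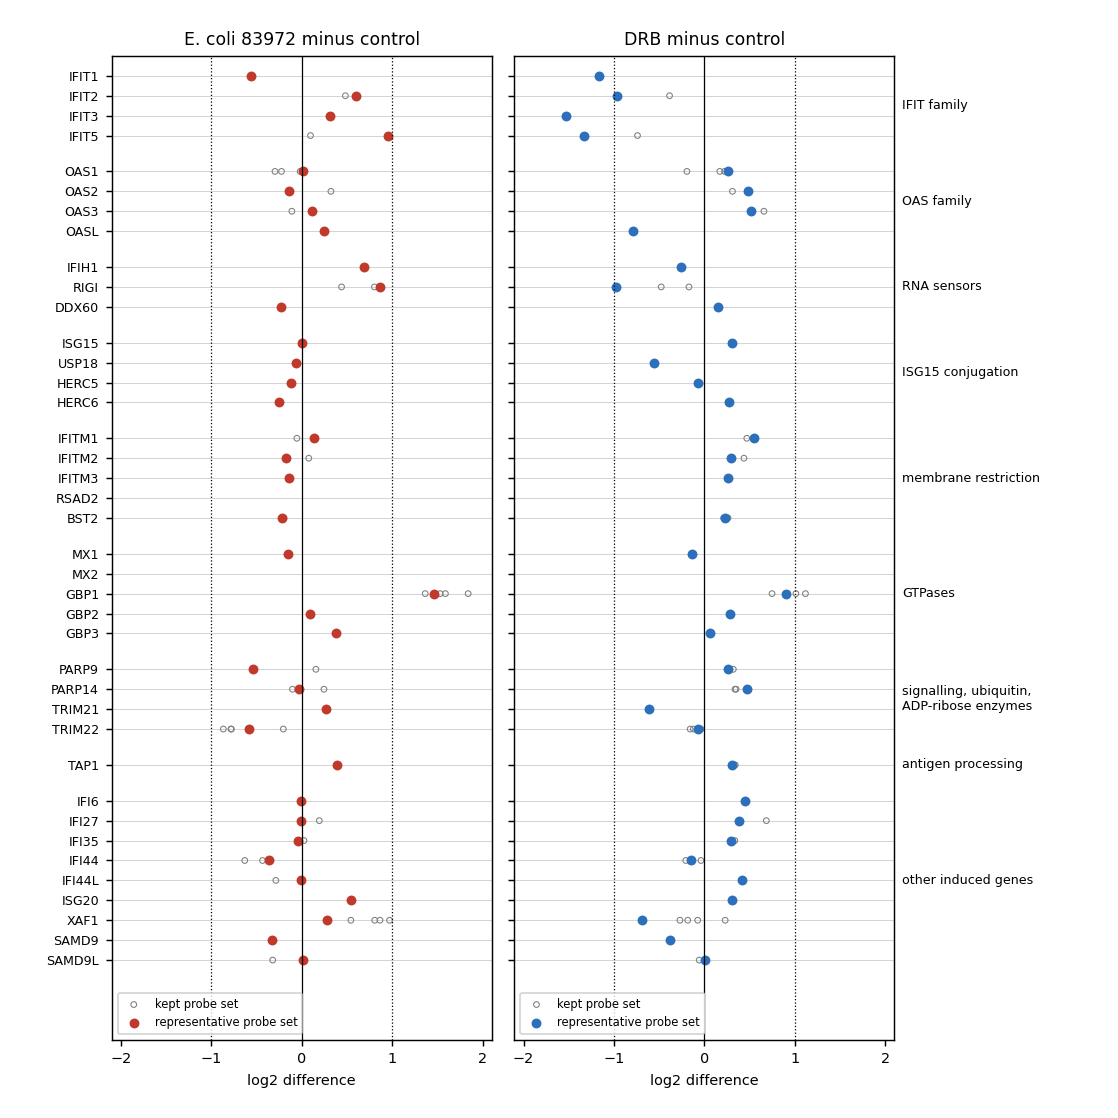
Log2 difference from control (x axis) of kept interferon-stimulated genes (rows, by role) for E. coli 83972 (left) and DRB (right); filled points are representative probe sets, open points the other kept probe sets, and dotted lines mark 2-fold. GBP1 alone passes 2-fold with E. coli 83972, and IFIT1, IFIT3 and IFIT5 pass it downward with DRB.

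Other members were lower with E. coli 83972. TRIM22, a ubiquitin ligase that restricts viral transcription, read 8.79 with E. coli 83972, 9.31 with DRB and 9.37 in the control. As deposited, only the bacterial array stood apart (−0.59), and all 5 kept probe sets were lower there, between −0.87 and −0.20 (mean −0.64 ± 0.27, SD over 5 probe sets). With centring on poly-A spike-ins TRIM22 differed by −0.56 with E. coli 83972 and by −0.90 with DRB. PARP9, an ADP-ribosyltransferase partner that promotes interferon signalling, read 5.80 with E. coli 83972, 6.61 with DRB and 6.34 in the control. Its difference of −0.54 was not shared by its second probe set (mean −0.19 ± 0.49, SD over 2 probe sets), so its direction is uncertain. IFI44, of unsettled function, was lower by a smaller amount (−0.37) and all of its 3 kept probe sets were lower (mean −0.48 ± 0.14).

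XAF1, a proapoptotic antagonist of XIAP, and ISG20, an exonuclease that degrades viral RNA, lay on the higher side. XAF1 read 7.65 with E. coli 83972, 6.68 with DRB and 7.36 in the control. The E. coli difference of its brightest probe set, 0.28, was the smallest of 5, and their mean was 0.69 ± 0.28 (SD over 5 probe sets). The brightest set gave −0.05 with centring on hybridization spike-ins. ISG20 read 6.62 with E. coli 83972, 6.38 with DRB and 6.08 in the control, so both treated arrays were above the control as deposited (0.54 and 0.30). TAP1, a subunit of the peptide transporter that loads MHC class I, was similar, with 8.84 with E. coli 83972, 8.75 with DRB and 8.45 in the control. Its 2 probe sets agreed closely (mean difference 0.40 ± 0.01 with E. coli 83972 and 0.32 ± 0.02 with DRB). These values rest on the scaling. With poly-A centring the DRB difference was −0.54 for ISG20 and −0.53 for TAP1. With hybridization centring the E. coli difference was 0.21 for ISG20 and 0.06 for TAP1.

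ISG15 and several other members did not pass 1.5-fold with E. coli 83972, unlike GBP1, IFIT5, RIGI, IFIH1 and IFIT2. ISG15, the ubiquitin-like modifier secreted and conjugated in an interferon response, read 8.06 with E. coli 83972, 8.36 with DRB and 8.06 in the control. Its deconjugating enzyme USP18, an inhibitor of the type I receptor, differed by −0.07. HERC5 and HERC6 differed by −0.12 and −0.25. IFI6 and IFI27, mitochondrial or membrane proteins used as markers of interferon exposure, differed by −0.01 and −0.0068, and IFI44L by −0.0076, values whose sign turned with poly-A centring or loess correction. IFI35 and PARP14 differed by −0.04 and −0.03. SAMD9L differed by 0.01 in its brightest probe set and by −0.32 in its other kept set (mean −0.15 ± 0.24, SD). Its neighbour SAMD9, which restricts poxviruses, differed by −0.33 in its 1 kept probe set. TRIM21, the cytosolic antibody receptor, differed by 0.26.

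The OAS genes encode synthetases of the activator of RNase L, and OASL a relative without that activity that enhances RIG-I signalling. Their E. coli differences lay between −0.14 (OAS2) and 0.25 (OASL), all below 0 with centring on hybridization spike-ins. OAS1 differed by 0.01, and its 4 kept probe sets averaged −0.13 ± 0.15 (SD). The membrane proteins that block virus entry or budding lay between −0.22 and 0.14. Among them BST2, which tethers virions at the cell surface, was lower by a similar amount in its 3 kept probe sets (mean −0.21 ± 0.01). IFITM2 and IFITM3, which block fusion in endosomes, differed by −0.18 and −0.15. RSAD2, the antiviral enzyme viperin, read 4.28 with E. coli 83972, 4.06 with DRB and 4.47 in the control, under the filter level on each array.

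With DRB 15 of 37 kept members were below 0 as deposited (40.5%), against 44.2% of all kept genes. With centring on hybridization spike-ins it was 19 of 37. That centring moved all genes alike, to medians of −0.0046 for the members and −0.18 for all kept genes. Of 37 kept members 3 were at least 2-fold lower (8.11%), against a background of 10.2% of all kept genes. None was at least 2-fold higher, where the background was 0.129%. At 1.5-fold, 8 members were lower (21.6%; background 18.1%) and 1 was higher (2.70%; background 2.03%). The shares were thus near those of all genes. The median difference of the members was 0.23, with quartiles of −0.38 and 0.30, and that of all kept genes was 0.052, with quartiles of −0.34 and 0.24. Signs close to 0 rest on the scaling: with centring on poly-A spike-ins, which moved all genes by the same amount, 36 of 37 members were below 0 and the medians were −0.61 for the members and −0.79 for all kept genes.

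**Figure D3:**
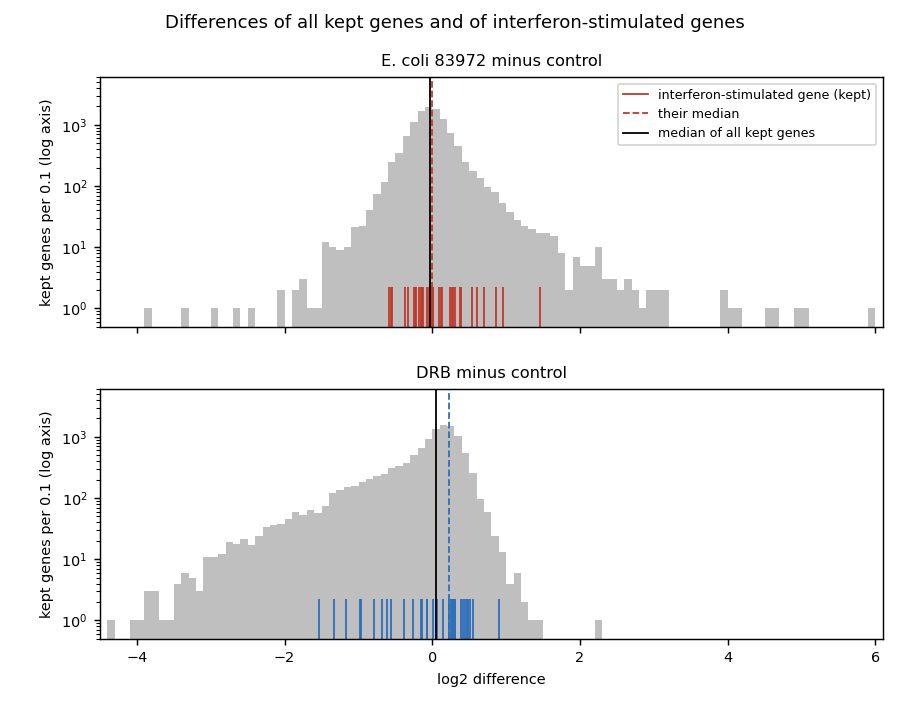
Number of kept genes per 0.1 of log2 difference (y axis, log scale) for E. coli 83972 (top) and DRB (bottom), with each kept interferon-stimulated gene as a coloured tick, their median dashed and the median of all 11653 kept genes in black. With E. coli 83972 both medians are close to 0, and with DRB the members' median of 0.23 lies to the right of 0.052.

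IFIT3, IFIT5 and IFIT1 were the 3 lowest of the kept members with DRB, followed by RIGI and IFIT2. IFIT3 was 2.90-fold lower (log2 −1.53), IFIT5 2.52-fold (−1.33) and IFIT1 2.25-fold (−1.17), and IFIT2 was just under the threshold at 1.95-fold (−0.97). The family lay below 0 in all 4 members under each scaling tried. The size was less certain where a second probe set existed. IFIT5 had −0.74 in the other set and read 4.86 with DRB, under the filter level, where differences are compressed. IFIT2 had −0.39 in its other set (mean −0.68 ± 0.41, SD over 2 probe sets).

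**Figure D4:**
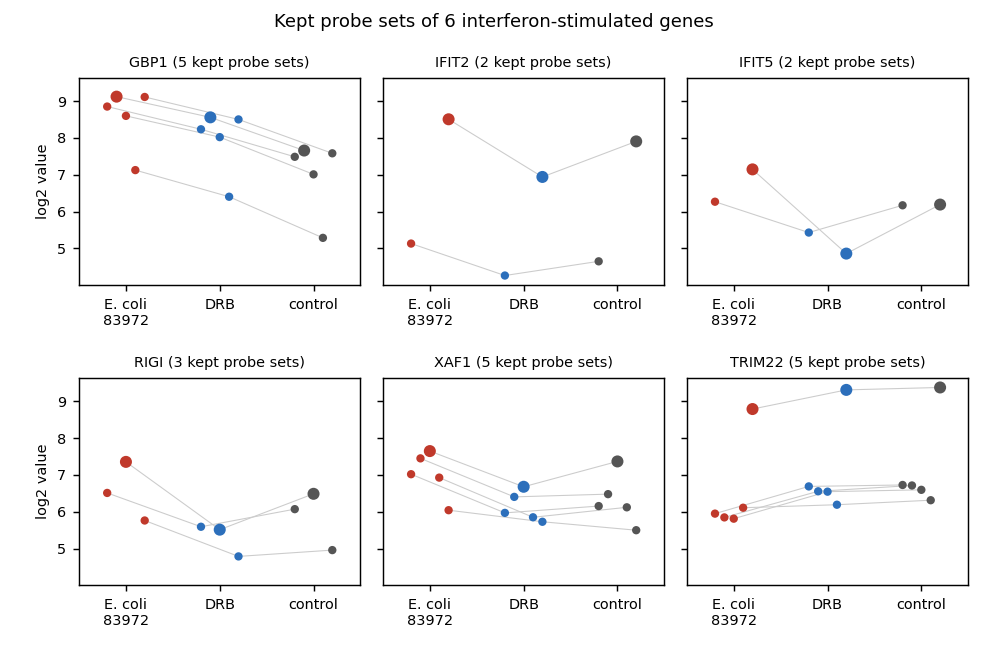
Log2 value (y axis) of each kept probe set of GBP1, IFIT2, IFIT5, RIGI, XAF1 and TRIM22 on the E. coli 83972, DRB and control arrays; grey lines join the values of 1 probe set and the larger points are the representative sets. The 5 sets of GBP1 run in parallel, while the 2 sets of IFIT5 differ in size.

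RIGI, described above, OASL, XAF1 and TRIM21 were also past 1.5-fold with DRB. OASL read 7.41 with E. coli 83972, 6.38 with DRB and 7.17 in the control, so that DRB stood apart by −0.78. The other 3 members of its family were higher than control with DRB in their brightest probe sets. OAS1 was higher by 0.26, OAS2 by 0.48 and OAS3 by 0.51, values that turned negative with poly-A centring (OAS3 −0.32). The 4 kept probe sets of OAS1 lay between −0.19 and 0.26 with DRB (mean 0.12 ± 0.21, SD). OAS3 itself read 9.43 with E. coli 83972, 9.83 with DRB and 9.31 in the control, and both of its kept probe sets showed the difference (mean 0.59 ± 0.10, SD over 2 probe sets). TRIM21 read 6.16 with E. coli 83972, 5.29 with DRB and 5.89 in the control (−0.61 with DRB). XAF1 differed by −0.69 in its brightest probe set and by −0.20 ± 0.33 (SD) over 5, so its direction is uncertain.

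USP18 read 6.24 with E. coli 83972, 5.75 with DRB and 6.30 in the control, a DRB difference of −0.55, while ISG15 differed by 0.30. The membrane proteins lay between 0.23 and 0.55, all 4 above 0 as deposited and all 4 below 0 with poly-A centring, and BST2 at −0.0046 with hybridization centring. IFITM1 led them, with 6.37 with E. coli 83972, 6.78 with DRB and 6.23 in the control, and its 2 probe sets agreed (mean 0.51 ± 0.06). IFI6 (0.45), IFI27 (0.38), IFI44L (0.42) and PARP14 (0.47) were of similar size, and all turned negative with poly-A centring. TRIM22 (−0.07), HERC5 (−0.07) and SAMD9L (0.0047) lay near 0 as deposited, and at −0.90, −0.91 and −0.83 with poly-A centring. Of the 20 members with several kept probe sets, 17 had all of them on the same side of 0 with DRB, against 10 with E. coli 83972. The reason was not tested.

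Members with and without an ISRE core match were set side by side. With E. coli 83972 the 22 kept members with a match had a median of −0.0092 and ranged from −0.56 to 1.46, and the 8 without had a median of 0.14 and ranged from −0.25 to 0.87. With DRB the median was 0.26 with a match and 0.03 without. The DRB ranges were −1.53 to 0.90 with a match and −0.97 to 0.29 without, so the values of the 2 groups overlapped in both comparisons. An NF-κB consensus was found before the start of RIGI and of IFIH1, 76 bases upstream in each, and of TAP1, OAS3, XAF1, MX1, BST2 and IFITM3, and none was found in that window of GBP1.

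The genes that lead to an interferon response were read from lists outside the members. None of the 17 interferon ligand genes measured reached the filter level on any array. IFNB1, the first type I interferon made in epithelial cells, read 3.62 with E. coli 83972, 3.52 with DRB and 3.43 in the control, and IFNL1 read 3.73 with E. coli 83972, 3.71 with DRB and 3.39 in the control. The largest ligand difference was 0.33 with E. coli 83972 and 0.32 with DRB, and differences at this level are compressed, so a change of these genes was not detectable here.

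Of 8 kept receptor and kinase genes, 2 were at least 2-fold higher with E. coli 83972 (25.0%; background 1.91%) and none lower. Both encode chains of the interferon gamma receptor. IFNGR1, the ligand-binding chain, read 9.83 with E. coli 83972, 7.39 with DRB and 8.06 in the control, a difference of 1.76 with the bacterium and −0.67 with DRB. IFNGR2 read 9.99 with E. coli 83972, 9.15 with DRB and 8.76 in the control (1.23 and 0.38). The type I receptor genes IFNAR1 and IFNAR2 differed by 0.45 and 0.47 with E. coli 83972, and IFNAR2 by 1.20 ± 0.87 (SD) as the mean over its 3 kept probe sets. With DRB none of the 8 was at least 2-fold different in its brightest probe set, where 10.2% of all kept genes were lower. JAK2 differed by −0.19 in that set and averaged −0.69 ± 0.70 (SD) over 2 kept sets. IFNAR2 differed by 0.42 and averaged −0.22 ± 0.74 over 3, the other side of 0. Whether the shares of this list and of the lists below differ from the background was not tested.

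Among 7 kept IRF genes, IRF1 alone passed 2-fold, upward with E. coli 83972 (14.3%; background 1.91%). IRF1, a factor that NF-κB and interferon gamma both induce and that binds the ISRE, read 9.28 with E. coli 83972, 5.89 with DRB and 6.57 in the control. It was 6.55-fold higher with the bacterium (log2 2.71), and its 3 kept probe sets averaged 2.55 ± 0.29 (SD). IRF9, the DNA-binding subunit of ISGF3, read 6.83 with E. coli 83972, 6.21 with DRB and 7.04 in the control (−0.21 and −0.83). Over its 4 kept probe sets it averaged 0.03 ± 0.24 (SD) with E. coli 83972, the other side of 0, and −0.50 ± 0.39 with DRB. IRF3 and IRF7, which drive interferon transcription, differed by 0.03 and −0.14 with E. coli 83972.

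Of 13 kept sensing and adaptor genes, 2 were at least 2-fold higher with E. coli 83972 (15.4%; background 1.91%) and none lower. The 2 were TICAM1 (1.09) and TANK, a scaffold of TBK1 (1.01). With DRB, 2 were at least 2-fold lower (15.4%; background 10.2%), TBK1 (−1.10) and TANK (−1.06). Over its 4 kept probe sets TANK averaged 0.89 ± 0.40 (SD) with E. coli 83972 and −0.77 ± 0.36 with DRB, under 2-fold in both. TLR4 read 5.04 with E. coli 83972, 4.69 with DRB and 5.64 in the control. Of 8 kept inhibitors none was 2-fold different with E. coli 83972, and 1 was at least 2-fold lower with DRB (12.5%; background 10.2%). It was PIAS1, an inhibitor of interferon signalling (−1.12). IRF2BP2, of the same list, was under 2-fold in its brightest probe set (−0.88), but its 5 kept probe sets averaged −1.41 ± 0.93 (SD). The 11 kept genes of the MHC class I pathway held none past 2-fold in either comparison. TAP2, the partner of TAP1, was the highest of them in both, with 0.54 for E. coli 83972 and 0.76 for DRB.

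The NF-κB subunits and inhibitors, the other arm of the response to bacteria, were read on the same arrays. Their list was chosen with earlier results of these data known. With E. coli 83972 all 10 were above 0, as were 5271 of all 11653 kept genes. The median of the 10 was 1.21, and 7 were at least 2-fold higher (70.0%; background 1.91%). Of the interferon-stimulated genes 1 of 37 was (2.70%), with a median of −0.0068. With DRB 2 of the 10 were at least 2-fold lower (20.0%; background 10.2%), with a median of −0.26. The 2 lists were not compared by a test.

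**Figure D5:**
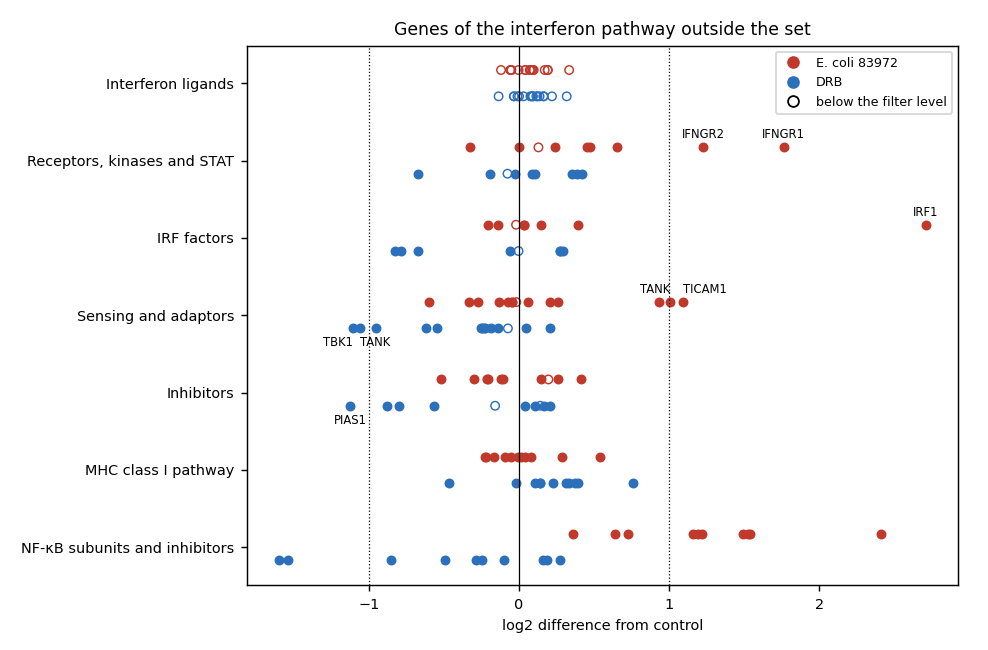
Log2 difference from control (x axis) of genes in 7 lists of the interferon pathway and of NF-κB (rows), for E. coli 83972 and DRB; open points are genes under the filter level and dotted lines mark 2-fold. The ligands are all open and lie between −0.14 and 0.33, and IRF1, IFNGR1 and IFNGR2 lie far to the right with E. coli 83972.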

How the data were processed

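The values used are the log2 probe-set values the authors deposited, made with RMA and Partek per the submitters' processing notes. Their versions and settings are not given in the sources used. RMA brings arrays to nearly the same distribution, so a change shared by most transcripts is reduced, and it compresses differences of dim probe sets. The array medians were 4.90 (E. coli 83972), 4.88 (DRB) and 4.87 (control).

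Of 49386 probe sets, 45259 had 1 gene symbol in the platform annotation, 1327 had several and named none, and 2800 were not listed. Current symbols came from RefSeq by Entrez identifier (GRCh38.p14 table), which served for names and gene order only. Promoter sequences are RefSeq's. The 40 members had 95 probe sets, of which 72 reached the filter level.

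The members were listed by symbol with no condition on their values, but they, the other lists, the thresholds and the naming rule were all chosen with earlier results of these data known. Every member is accounted for. The 3 values are printed for each of the 16 kept members that differed by at least 0.5 in a comparison, and for some others as context. Genes of the lists outside the members are named when kept and at least 2-fold different, with others added as context, some of them after their values were seen. The technical standard deviation (plain estimate) rests on the 2 brightest kept probe sets of 6317 genes. It was 0.18 for E. coli 83972 and 0.32 for DRB, and robust estimates were 0.12 and 0.15. With so few arrays, precision is limited throughout. The calculation was tested on simulated data. Python 3.11.15, pandas 2.3.3 and statsmodels 0.14.6 were used.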

Additional observations from a re-analysis of the deposited data

How the results depend on the processing

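GBP1 was the only member at least 2-fold higher with E. coli 83972, and no member was 2-fold higher with DRB, as deposited, after averaging a gene's kept sets, with no filter, with either spike-in centring and with loess correction. With only plain-suffix probe sets, which covered 7 members and left out GBP1, 0 members were higher with E. coli 83972 and 0 lower with DRB. With a threshold of 1.5-fold the counts were 5 higher and 1 lower with E. coli 83972, and 1 higher and 8 lower with DRB. Rescaling at 1.5-fold, an alternative chosen after seeing the data, gave 2 higher and 6 lower with E. coli 83972 under hybridization centring, 0 lower under poly-A centring or loess correction, and 0 higher and 19 lower with DRB under poly-A centring, where 76.8% of all kept genes were lower. The count at least 2-fold lower with DRB was 3 as deposited, 11 with poly-A centring, 6 with hybridization centring and 5 with loess correction, where the share of all kept genes was 10.2%, 32.7%, 14.1% and 12.2%. Centring shifts all genes alike, by 0.84 (poly-A) and 0.23 (hybridization) with DRB and by 0.34 (hybridization) with E. coli 83972. The members' median was −0.61 with poly-A centring for DRB and −0.34 with hybridization centring for E. coli 83972. Of 166 recomputed values of single members, 126 stayed within the technical standard deviation and 40 moved by more, 32 of them through centring. No 2-fold difference changed sign. Part of this was fixed in advance, so the count does not measure robustness. Dropping the filter cannot change the value of a kept member (32 of the 126). Averaging cannot change a member with 1 kept probe set, and centring moves all members alike. No paired analysis was possible because each group has 1 array. With 1 array per group, dim signal limits MX2, RSAD2 and the interferon ligands.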
